A study of Mus musculus with 6 samples.

Results

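*Spem1*, *Lelp1*, *Spata3*, *Oaz3*, *Fscn3*, *Tbc1d21*, *Cabs1*, *Gsg1* and *Spert* are 9 genes expressed in haploid germ cells late in sperm formation, and they are described here in testicular germ cells of mice that lack *Mgat1* in the germ line. They are 9 of the 23152 genes that the arrays measured, and their probe sets were found by gene symbol. *Cabs1* stood under its older symbol 4931407G18Rik and *Spert* is now named *Cby2*. The genes were chosen by their higher signal in mutant than in control germ cells on these same arrays, so that difference is given for them as a description, with no test. Germ cells were prepared by enzymatic digestion from testes of 22-day-old FVB mice. The groups were 3 *Mgat1* cKO males (*Mgat1*[F/F]:Stra8-iCre) and 3 control males that carried the same floxed *Mgat1* alleles without Cre (*Mgat1*[F/F]). Stra8-iCre is a Cre recombinase driven by the *Stra8* promoter, which is active from spermatogonia onward, so that the floxed alleles are lost in germ cells and kept in the other cells of the testis. *Mgat1* encodes the GlcNAc transferase with which the making of complex N-glycans begins. Each mouse had its own Affymetrix mouse gene array, and the sources do not name litters, so an effect of litter cannot be told apart from that of genotype.

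All values are RMA signals on a log2 scale, in which a difference of 1 is a 2-fold change, and the value of a gene is the mean of its probe sets. *Mgat1* itself had 6.87, 6.69 and 6.80 in the cKO arrays and 6.91, 7.00 and 6.82 in control arrays. The difference was -0.13 (95% interval -0.34 to 0.09, adjusted p = 0.356, limma). The positions of its 12 probe sets relative to the deleted segment are not known here, so these values were no check of the genotype labels. Arrays of the same genotype correlated at 0.992 to 0.994 over all genes and arrays of different genotypes at 0.950 to 0.970, and the median difference over all genes was -0.02. The label of germ cells was compared with marker genes: the 24 measured pachytene spermatocyte genes averaged 10.40 to 10.54 on cKO arrays and 10.64 to 10.66 on control arrays. Of these, 3 were raised and 10 lowered (limma, adjusted p under 0.05 over all genes), against 13.3% raised and 18.4% lowered among all genes, with a median difference of -0.26. Of 25 round spermatid genes 19 were raised and 1 lowered (median 1.65), and of 25 genes of condensing spermatids 24 were raised and 0 lowered (median 2.03). These lists were chosen with earlier results of these data known, so their counts are a description and not a test.

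After meiosis, round spermatids reshape their nucleus, replace histones by transition proteins and then protamines, grow a flagellum with a mitochondrial sheath, and shed most of their cytoplasm. Because the condensing nucleus stops transcription, many of the transcripts needed late are made in round spermatids, stored and translated days later. The genes described here encode proteins of these late steps: cytoplasm removal (*Spem1*), calcium binding (*Cabs1*), the mitochondrial sheath and flagellum (*Tbc1d21*), the junction of head and tail (*Oaz3*), actin bundling (*Fscn3*) and binding of the testis poly(A) polymerase (*Gsg1*), beside the less well described products of *Lelp1*, *Spata3* and *Spert*.

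Promoter sequence is shown because the 9 genes moved together, and it was not used to pick them. RefSeq windows on GRCm38.p6, which run from 250 bases before a transcript start to 50 after it, matched 8 of the genes, in 10 windows. In each, the 100 bases before the start were read in the direction of the gene. The letters CACAATG, or CATTGTG on the other strand, were in a window of 4 of the 8 genes, *Spem1*, *Tbc1d21*, *Fscn3* and *Spert*, and in a window of 5.13% of the 27025 genes with one. They are in capitals in these 4 sequences.
Spem1, chr11:69822166-69822265, minus strand: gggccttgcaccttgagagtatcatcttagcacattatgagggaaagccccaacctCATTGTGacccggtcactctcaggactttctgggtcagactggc
Tbc1d21, chr9:58370456-58370555, minus strand: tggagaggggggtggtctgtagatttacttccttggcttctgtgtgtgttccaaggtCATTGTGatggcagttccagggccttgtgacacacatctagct
Fscn3, chr6:28427801-28427900, plus strand: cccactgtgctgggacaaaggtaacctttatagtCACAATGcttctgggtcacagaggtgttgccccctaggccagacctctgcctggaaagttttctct
Spert (Cby2), chr14:75593117-75593216, minus strand: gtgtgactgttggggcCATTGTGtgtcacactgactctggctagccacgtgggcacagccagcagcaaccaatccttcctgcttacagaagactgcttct
Counted from the start, the match began at -44 in *Spem1*, -43 in *Tbc1d21*, -66 in *Fscn3* and -84 in *Spert*, so that in *Spem1* and *Tbc1d21* it lay at almost the same distance and on the same strand. The letters TGACATCA, or TGATGTCA, were in a window of *Lelp1* and of *Gsg1*, 2 of the 8 genes, against 4.18% of all genes. They are in capitals in these 2 sequences, where they began at -45 and -35.
Lelp1, chr3:92142755-92142854, minus strand: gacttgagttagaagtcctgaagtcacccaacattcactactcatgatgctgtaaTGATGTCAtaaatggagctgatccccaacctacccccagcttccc
Gsg1, chr6:135254337-135254436, minus strand: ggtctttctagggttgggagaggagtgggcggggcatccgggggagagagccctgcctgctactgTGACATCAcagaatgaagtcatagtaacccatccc
Both strings of letters were chosen after the sequences had been read, and a match is a description of letters, not a binding site. They were also present in 4 (CACAATG) and 10 (TGACATCA) of the 23 condensing spermatid genes with a window. The palindrome TGACGTCA, the full cAMP response element, was in 0 of the 8 genes and in 2.03% of all genes, and its core TGACG in 0 of the 8 and in 23.0%. TATAAA was in a window of 3 of the 8 genes (15.7% of all genes) and CCAAT in a window of 3 (41.1%), with both strands read for each. All 3 TATAAA matches were on the other strand, as TTTATA, and began at -197 (*Cabs1*), -74 (*Fscn3*) and -175 (*Gsg1*). Windows of *Spata3* and *Cabs1* held neither CACAATG nor TGACATCA.

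All 9 genes were higher in *Mgat1* cKO germ cells, between 3.78-fold and 12.9-fold. The median difference was 2.69, or 6.44-fold, against -0.02 over all genes. For each gene every cKO array lay above every control array, by 1.61 (*Gsg1*) to 3.40 (*Cabs1*) between the lowest cKO and the highest control value. Of all genes 20.1% had their groups apart in this direction, 26.6% had them apart in the opposite one, 13.3% were raised by the test and 4.19% were at least 2-fold higher, and the choice of the genes fixes where they stand among these. In bulk RNA, more cells of a type and more RNA per cell cannot be told apart.

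**Figure D1:**
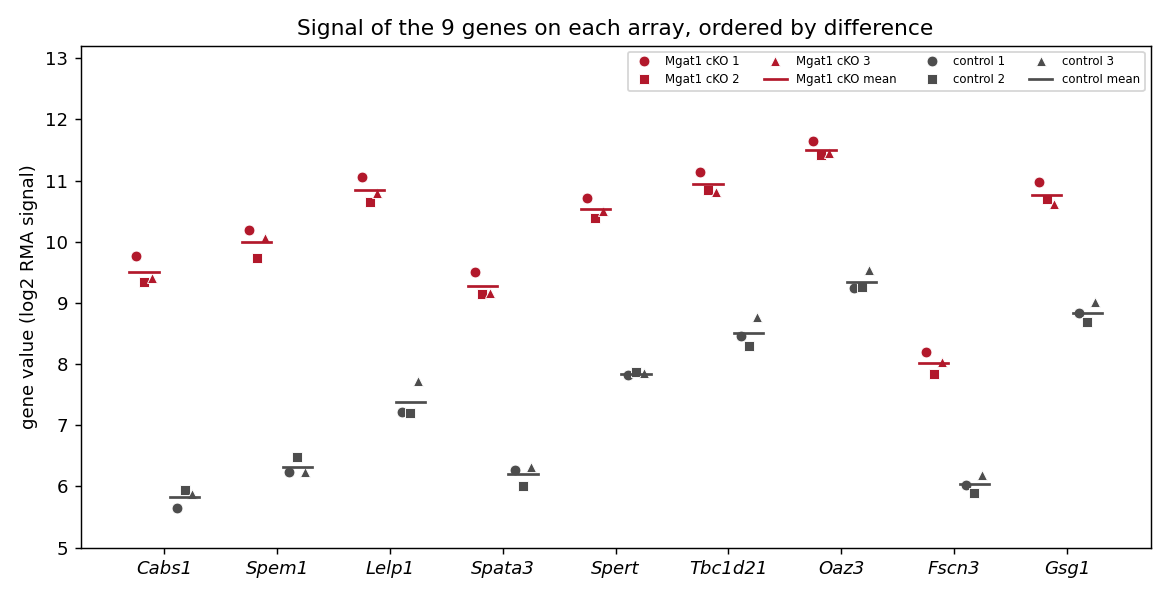
Signal of each of the 9 genes (log2, mean of its probe sets) on every array, with Mgat1 cKO arrays in red at the left of each pair, control arrays in grey at the right and horizontal lines for group means. Every cKO array lies above every control array in all 9 genes, and the distance narrows from 3.69 in Cabs1 to 1.92 in Gsg1.

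*Spem1*, whose loss in mice leaves cytoplasm around bent sperm heads, had 10.19, 9.73 and 10.05 in cKO germ cells and 6.24, 6.48 and 6.23 in control germ cells. The group means were 9.99 ± 0.24 and 6.31 ± 0.14 (SD, n = 3 each), a difference of 3.68 ± 0.13 (SE) or 12.8-fold. This was the 11th largest positive difference of the 23152 genes. Its 3 probe sets were all higher in the cKO, by 4.52, 4.28 and 2.23. The smallest of these came from the dimmest probe set, which read 7.60, 6.97 and 7.64 in the cKO and 5.52, 5.62 and 4.39 in control. The gene mean is therefore pulled down by 1 of 3 probe sets, and the difference was 4.50 with the median of probe sets, 4.40 without the dimmer 50% of probe sets and 4.52 on the brightest probe set, which is the one with the highest mean over the 6 arrays.

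*Cabs1*, which encodes a calcium-binding protein of elongating spermatids and the sperm tail, had 9.77, 9.34 and 9.41 in cKO germ cells and 5.65, 5.94 and 5.87 in control germ cells. The difference was 3.69 ± 0.13 (SE), 12.9-fold, the 10th largest. It exceeded that of *Spem1* by 0.012, which is less than the standard error of either, so the order of these genes is not resolved. Of 4 probe sets, 3 had differences of 3.92 to 4.84, and the other had 1.24, with 7.89, 7.31 and 7.05 in the cKO against 6.07, 6.80 and 5.66 in control. That probe set had the lowest signal of the 4 in the cKO and the highest in control. Without the dimmer 50% of probe sets the difference of *Cabs1* was 4.50, and on its brightest probe set 4.75.

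*Lelp1* encodes a short proline- and cysteine-rich protein named for its likeness to proteins of the cornified envelope, and the gene sits among the epidermal differentiation genes of chromosome 3. It had 11.06, 10.66 and 10.80 in cKO germ cells and 7.21, 7.21 and 7.73 in control germ cells, with means of 10.84 ± 0.21 and 7.38 ± 0.30. Control 3 stood 0.52 above the lowest control, the widest spread in control of the 9 genes. The difference was 3.46 ± 0.16 (SE), 10.98-fold, and the 3 probe sets were close together, at 3.22, 3.47 and 3.68.

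*Spata3*, named for its association with spermatogenesis, had 9.51, 9.14 and 9.16 in cKO germ cells and 6.28, 6.01 and 6.32 in control germ cells. The difference was 3.07 ± 0.13 (SE), 8.38-fold. All 12 probe sets were higher in the cKO with no overlap of the groups, but over a wide range, from 1.17 to 4.68, and the brightest had 3.81. With *Spem1*, *Cabs1* and *Lelp1* it was 1 of 4 of the genes at or above 8-fold, a size reached by 0.173% of all genes.

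*Spert*, a leucine zipper protein of the chibby family found in spermatids, had 10.71, 10.39 and 10.49 in cKO germ cells and 7.82, 7.87 and 7.85 in control germ cells. Its control arrays were the closest of all 9 genes (SD 0.026), and the difference was 2.69 ± 0.10 (SE), 6.44-fold. Of its 7 probe sets 5 had differences of 1.78 to 2.32 and the other 2 had 3.93 and 4.17. These 2 adjoin each other in the array listing and were the dimmest in control germ cells (means of 6.85 and 4.80).

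*Tbc1d21* encodes a Rab GTPase-activating protein of the testis that mouse sperm need for an intact mitochondrial sheath and flagellum. It had 11.15, 10.84 and 10.82 in cKO germ cells and 8.46, 8.29 and 8.77 in control germ cells, a difference of 2.43 ± 0.14 (SE) or 5.39-fold. Of its 12 probe sets, 10 had differences of 2.35 to 2.84, and the other 2 had 1.18 and 1.95.

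*Oaz3*, the antizyme of haploid germ cells, is translated only after a ribosomal frameshift, as other antizymes are, and sperm of mice without it lose their heads. It had 11.65, 11.42 and 11.45 in cKO germ cells and 9.25, 9.26 and 9.54 in control germ cells, a difference of 2.16 ± 0.11 (SE) or 4.46-fold. The 7 probe sets ranged from 1.36 to 2.81, and in the order of the array listing they went steadily down from the first to the last, 2.81, 2.70, 2.31, 2.08, 1.99, 1.85 and 1.36. Which part of the transcript each probe set covers is not known here.

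*Gsg1* encodes a membrane protein of spermatids that binds the testis-specific poly(A) polymerase. It had 10.98, 10.70 and 10.61 in cKO germ cells and 8.83, 8.69 and 9.01 in control germ cells, a difference of 1.92 ± 0.12 (SE) or 3.78-fold, the smallest of the 9. Its 10 probe sets were alike, with 8 between 1.74 and 2.32 and 2 dimmer ones at 1.27 and 1.37.

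*Fscn3*, the fascin of the testis, belongs to a family that bundles actin filaments. It had 8.20, 7.83 and 8.04 in cKO germ cells and 6.02, 5.90 and 6.19 in control germ cells, a difference of 1.99 ± 0.12 (SE) or 3.97-fold. Its 10 probe sets disagreed the most. The highest difference was 3.99, from 8.98, 8.67 and 9.00 in the cKO against 5.29, 4.58 and 4.80 in control, while 2 probe sets were lower in the cKO with overlapping groups. The brighter of these read 6.08, 4.96 and 6.59 in the cKO and 6.34, 6.26 and 6.17 in control, and the other 3.48, 3.04 and 2.96 in the cKO and 3.22, 3.47 and 4.12 in control. On the probe set that was brightest over all 6 arrays, though not within the cKO, with 9.35, 9.17 and 8.98 in the cKO against 8.64, 7.96 and 7.99 in control, the difference of *Fscn3* was 0.97. It was 2.78 with the median of its probe sets. The direction held in both, but the size of the *Fscn3* change depends on how its probe sets are joined.

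Over all 9 genes 66 of 68 probe sets were higher in the cKO with no overlap of the groups, and the 2 that were not both belonged to *Fscn3*. The difference was under 1 in 3 probe sets. The genes were chosen by this difference, so these counts are a description. Of all genes 20.1% had their groups apart in this direction, and the share of all probe sets was not counted. Only probe sets with 1 gene symbol were used, so by that choice none of the 68 was listed with another gene.

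**Figure D2:**
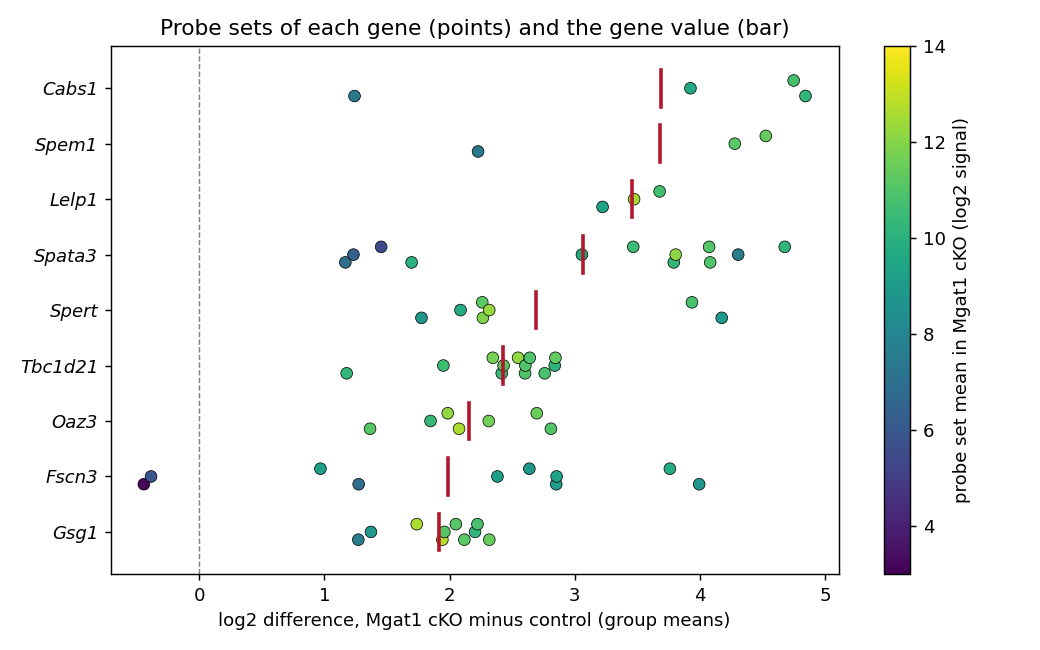
Difference between the Mgat1 cKO and control means (log2, x axis) for each probe set (points, coloured by mean cKO signal) of the 9 genes (rows), with a red bar at the value of the gene. Probe sets of Lelp1 lie within 3.22 to 3.68, while those of Fscn3 spread from -0.44 to 3.99, and only 2 points, both of Fscn3, lie below 0.

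The genes also ranked the cKO mice in much the same order, and the control mice less so. The array of cKO 1 was the highest of the 3 cKO arrays in 9 of 9 genes, by a median of 0.32 over the mean of the other cKO arrays. This array was the highest of its group in 32.7% of all genes and in 62.1% of the genes raised by the test, where the median was 0.12. Among the lists of germ cell stages it led in 17 of 25 condensing spermatid genes, 18 of 25 round spermatid genes and 2 of 24 pachytene genes. The lowest cKO array was cKO 2 in 7 genes and cKO 3 in *Tbc1d21* and *Gsg1*. In control germ cells, control 3 was highest in 6 genes, and control 2 in *Spem1*, *Cabs1* and *Spert*. Control 3 was the highest control in 33.9% of all genes and in 49.6% of the genes raised by the test. It led in 16 of 25 condensing spermatid genes, 24 of 25 round spermatid genes and 11 of 24 pachytene genes. The lowest control array was control 2 in 5 genes, control 1 in 3 and control 3 in *Spem1*. The genes are not independent of each other on an array, so these counts describe 6 mice and are not 9 separate observations.

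**Figure D3:**
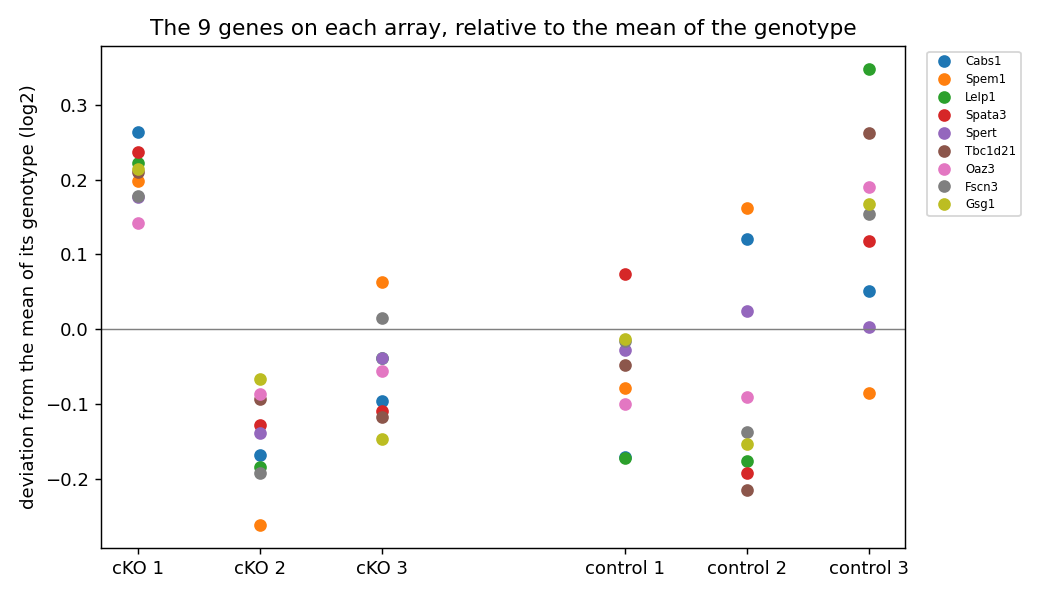
Deviation of each of the 9 genes from the mean of its genotype (log2, y axis) on the 3 Mgat1 cKO arrays (left) and the 3 control arrays (right), with a colour for each gene. All 9 points of cKO 1 lie above 0 and all 9 of cKO 2 below it, while each control array holds points on both sides.

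Markers of other testis cells also differed between these arrays. Of 8 measured Leydig cell markers 1 was raised and 2 lowered. The raised one, *Insl3*, had 7.89, 7.53 and 7.75 on cKO arrays and 7.37, 7.03 and 7.48 on control arrays. The mean of the Leydig list was 7.50, 8.77 and 8.44 on cKO arrays and 8.76, 9.15 and 8.66 on control arrays. By this mean the cKO 1 array, the highest for the 9 genes, was the lowest for Leydig markers. The Sertoli cell list ran the other way within the cKO, with 8.25, 8.07 and 7.98 on cKO arrays against 8.40, 8.49 and 8.50 on control arrays. Among all genes 13.3% were raised and 18.4% lowered. Of 11 peritubular and stromal markers 0 were raised and 7 lowered. Their list means were 7.57, 7.98 and 7.79 on cKO arrays and 8.42, 8.55 and 8.22 on control arrays. Of 12 macrophage markers 0 were raised and 7 lowered (6.67, 7.24 and 6.99 on cKO arrays, 7.56, 8.02 and 7.60 on control arrays). The cKO 1 array was thus the lowest for the stromal and macrophage lists too. Of 14 Sertoli cell markers 0 were raised and 6 lowered. The median differences of these lists were -0.66 (Leydig), -0.71 (stromal), -0.61 (macrophage) and -0.36 (Sertoli), and their part in the differences of the 9 genes was not tested. Without the cKO 1 array the median difference of the 9 genes was 2.60.

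The pattern of *Spem1* over the 6 arrays was then set beside that of 17272 genes, after each gene's control mean had been taken away. These genes had at least 2 probe sets and passed a filter on gene names. The 5 genes nearest to *Spem1* outside the 9 were *Prm1* (Euclidean distance 0.455 over 6 arrays), *Tnp1* (0.494), *H1fnt* (0.602), *Dnajb7* (0.801) and *Txndc2* (0.825). *Prm1* encodes a protamine, *Tnp1* a transition protein and *H1fnt* a linker histone of spermatids, which all act in packing the sperm nucleus. Of the 9, *Cabs1* was nearer to *Spem1* (0.260) than any of these. *Prm1* had 10.12, 9.91 and 10.16 in the cKO and 6.43, 6.51 and 6.70 in control, a difference of 3.52, and *Tnp1* had 3.90. The 5 genes nearest to the median pattern of the 9 were *Cd109* (0.131), *Csl* (0.170), *AI507597* (0.184), *Atp1a4* (0.198), which encodes a sodium pump subunit of sperm, and *Fhl5* (0.213), a co-activator of CREM in spermatids. Their differences were 2.59 to 2.74. These distances rank likeness on 6 arrays in which the genotype is the main difference.

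Genes beside the 9 on the chromosomes mostly did not move with them. The 3 measured genes on each side of each, 54 in all, had a median difference of 0.03, with 9 raised (16.7%, against 13.3% of all genes) and 7 lowered (13.0%, against 18.4%; 4 without control 2). Of the 18 immediate neighbours 4 were raised and 2 lowered, and the 38 neighbours that did not pass lay between -0.60 and 0.29. *Spata3* and *Gsg1* had no neighbour past the test.

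**Figure D4:**
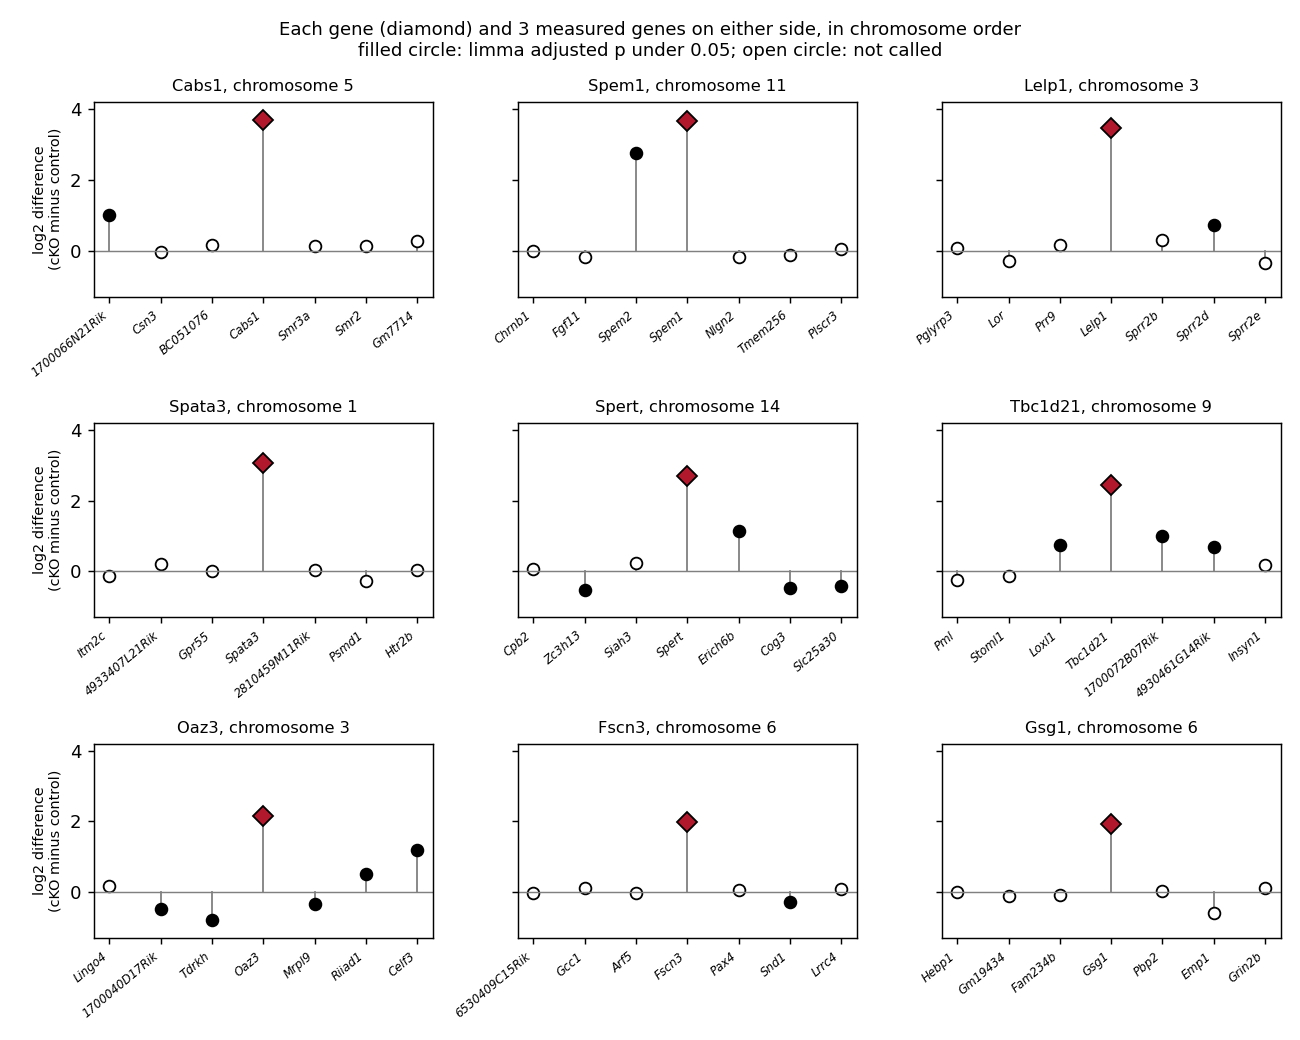
Difference between Mgat1 cKO and control (log2, y axis) of each of the 9 genes (diamond) and the 3 measured genes on each side in chromosome order (filled circles past the limma test, open circles not). Spem2 beside Spem1 (2.77) is the neighbour with the highest value, and the 38 open circles lie between -0.60 and 0.29.

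The exception in size was *Spem2*, the gene next to *Spem1* on chromosome 11 and its relative by name, measured under 4933402P03Rik with 4 probe sets. It had 9.62, 9.22 and 9.15 in cKO germ cells and 6.62, 6.44 and 6.62 in control germ cells, with means of 9.33 ± 0.25 and 6.56 ± 0.11. The rise was 2.77 ± 0.13 (SE), 6.83-fold (adjusted p = 1.21e-06, limma over all genes), and *Spem2* too was highest on the cKO 1 array. The difference of *Spem2* was 1.78 on its brightest probe set and 3.25 if its probe sets were joined by their median. *Nlgn2*, on the other side of *Spem1*, did not pass, so of the immediate neighbours of *Spem1* the gene of its own family moved.

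Other raised neighbours changed less. Beside *Spert*, *Erich6b* rose by 1.13 (2.19-fold, adjusted p = 0.000181), while *Zc3h13* (-0.53), *Cog3* (-0.47) and *Slc25a30* (-0.42) were lowered; *Zc3h13* had 0.01 on its brightest probe set. Beside *Tbc1d21*, *Loxl1*, a cross-linking enzyme of elastic fibres, rose by 0.74 (adjusted p = 0.000183), *1700072B07Rik* by 0.99 (adjusted p = 0.00163) and *4930461G14Rik* by 0.70 (adjusted p = 0.0197). The last of these lost its call without cKO 1 (0.63) or without cKO 3 (0.71). *1700066N21Rik*, the third gene on 1 side of *Cabs1*, rose by 1.01 (adjusted p = 0.000149), while the casein and salivary genes nearer to *Cabs1* did not pass. Among the small proline-rich genes beside *Lelp1*, *Sprr2d* rose by 0.73 (adjusted p = 0.00222) and *Sprr2b* and *Sprr2e* did not pass; these copies are nearly identical, so signal may be shared between them.

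Around *Oaz3* the genes went both ways. *Tdrkh*, a Tudor domain gene of the piRNA pathway that overlaps *Oaz3* on the gene table, had 8.54, 8.68 and 8.90 in the cKO and 9.55, 9.56 and 9.41 in control, and fell by 0.80 (adjusted p = 0.00074). Its overlap with *Oaz3* thus did not come with the same direction. On the other side *Mrpl9*, a mitochondrial ribosome gene, fell by 0.35 (adjusted p = 0.0153; -0.30 and not called without control 2), and next to it *Riiad1* rose by 0.50 (adjusted p = 0.00327) and *Celf3*, an RNA-binding gene, by 1.19 (2.28-fold, adjusted p = 0.00105). *1700040D17Rik* had -0.47 (adjusted p = 0.0202) and was not called without control 1 (-0.41), control 2 (-0.46), cKO 1 (-0.35) or cKO 2 (-0.47). Beside *Fscn3*, *Snd1* had -0.28 (adjusted p = 0.0385) and was not called without any single array (-0.25 to -0.32), with arrays centred on their medians (-0.23) or with the replicate block (-0.28).

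Genes of the same families were compared next. Of 38 relatives 36 were measured, 5 raised (13.9%, against 13.3% of all genes) and 11 lowered (30.6%, against 18.4%), with a median of -0.11. Apart from *Spem2*, *Oaz1*, *Oaz2*, *Fscn1*, *Fscn2*, *Cby1* and *Gsg1l*, the measured relatives were TBC domain genes, so the counts mainly describe that family. The lowered count was 4 without control 2, 7 without control 3, 5 without cKO 1 and 7 without cKO 2. Besides *Spem2*, the raised ones were all TBC domain genes, *Tbc1d9* (0.89, adjusted p = 0.00054; 1.61 without the dimmer 50% of probe sets), *Tbc1d25* (0.85, adjusted p = 0.00154), *Tbc1d14* (0.40, adjusted p = 0.0166) and *Tbc1d2* (0.32, adjusted p = 0.0196), each well under the 2.43 of *Tbc1d21*. *Tbc1d14* was not called without control 2 (0.36), control 3 (0.37) or cKO 1 (0.35), and *Tbc1d2* not without control 2 (0.30), cKO 1 (0.32) or cKO 2 (0.30). The lowered ones were TBC domain genes too, among them *Tbc1d8* (-0.75, adjusted p = 0.0155) and *Tbc1d4* (-0.64, adjusted p = 0.0154), a regulator of glucose transporter traffic. *Tbc1d8* was not called without control 2 (-0.69) or control 3 (-0.70), nor *Tbc1d4* without cKO 1 (-0.60).

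The other antizymes and fascins did not pass. *Oaz1*, the antizyme of most tissues, had 7.88, 7.86 and 8.02 in cKO germ cells and 7.92, 9.07 and 8.80 in control germ cells, where control 1 stood with the cKO arrays. Its difference was -0.68 (95% interval -1.22 to -0.13, adjusted p = 0.0613); it passed without control 1 (-1.01, adjusted p = 0.000407) and with the replicate block (adjusted p = 0.0308). *Oaz2* had -0.07 (95% interval -0.33 to 0.18, adjusted p = 0.654), *Fscn1* -0.08 (-0.34 to 0.18, adjusted p = 0.623) and *Fscn2* -0.02 (-0.25 to 0.22, adjusted p = 0.928). The upper ends of these intervals lay far below the differences of *Oaz3* (2.16) and *Fscn3* (1.99), though *Fscn2* had 0.38 on its brightest probe set.

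**Figure D5:**
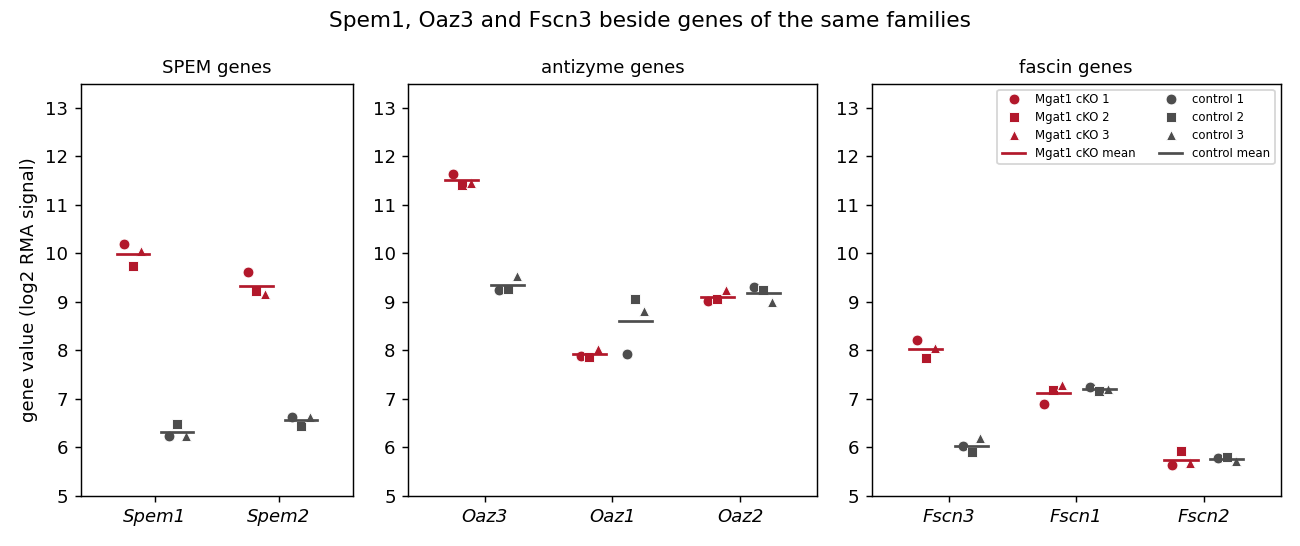
Signal (log2, y axis) of Spem1 and Spem2, of the antizyme genes Oaz3, Oaz1 and Oaz2 and of the fascin genes Fscn3, Fscn1 and Fscn2 on each array, with Mgat1 cKO in red at the left of each pair, control in grey at the right and lines for group means. Groups lie apart in Spem1, Spem2, Oaz3 and Fscn3, with the cKO higher, and overlap in the other 4 genes.

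Antizymes bind ornithine decarboxylase, the first enzyme of polyamine synthesis. Of 16 genes of this pathway 14 were measured, 1 raised (7.14%, against 13.3% of all genes) and 3 lowered (21.4%, against 18.4%), with a median of -0.21. Without cKO 1 the lowered count was 1, and without control 1 the raised count was 2. The raised gene was *Azin2*, an antizyme inhibitor with high levels in testis and brain, listed as Adc, with 8.32, 8.20 and 8.12 in cKO germ cells and 7.58, 7.39 and 7.32 in control germ cells, a rise of 0.79 ± 0.10 (SE) or 1.72-fold (adjusted p = 0.000526). *Odc1*, the decarboxylase itself, had 0.16 (adjusted p = 0.217) and *Azin1*, the inhibitor of most tissues, -0.23 (adjusted p = 0.103; it passed with a trended, robust variance). The 3 lowered genes were *Sat2* (-0.64, adjusted p = 0.00172), *Sat1* (-0.60, adjusted p = 0.0169), which encode acetyltransferases, and *Smox* (-0.38, adjusted p = 0.043), which encodes spermine oxidase. *Sat2* had -0.24 and no call on its brightest probe set. *Sat1* was not called on its brightest probe set or without the dimmer 50% of probe sets (-0.19 in both), with the methods' one-way test (adjusted p = 0.118), or without cKO 1 (-0.47) or cKO 3 (-0.58), and *Smox* not without control 2 (-0.24), cKO 1 (-0.41), cKO 2 (-0.36) or cKO 3 (-0.36) or with arrays centred (-0.33).

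Of the genes of 8 proteins described as binding partners of the products, 2 were raised (25%, against 13.3% of all genes) and 1 lowered (12.5%, against 18.4%). Their differences lay between -0.53 and 0.46, with a median of -0.02. *Papolb*, the testis poly(A) polymerase that binds GSG1, had 11.26, 11.25 and 11.25 in cKO germ cells and 10.72, 10.74 and 10.92 in control germ cells, a rise of 0.46 (adjusted p = 0.00538), against 1.92 for *Gsg1*. *Ggn*, a partner of OAZ3, had 0.35 (adjusted p = 0.0217) but 0.01 with the median of probe sets, and was not called without control 1 (0.34), control 2 (0.30), cKO 1 (0.33) or cKO 2 (0.34). *Rap1b*, a small GTPase that binds TBC1D21, fell by 0.53 (adjusted p = 0.00222). The remaining 5 did not pass: *Ubqln1*, the ubiquilin that binds SPEM1, had 0.16 (adjusted p = 0.188), *Ranbp17* -0.18, *Ppp1r16a* -0.01, *Ggnbp1* -0.03 and *Rap1a* -0.26.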

How the data were processed

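Germ cell RNA of 6 mice, 3 *Mgat1* cKO and 3 control, was hybridized to 1 Affymetrix Mouse Gene ST array per mouse. The authors ran RMA in Affymetrix Expression Console, which subtracts background, normalizes the arrays together and joins probes into probe sets, and the deposited values are log2 signals of 269751 probe sets, from 2.11 to 14.33, with array medians of 7.31 to 7.38. Software versions: not given in the sources used here. Bringing arrays to a common distribution hides a change in total RNA and narrows differences at low signal, and the number of arrays limits the precision (median SE of a difference 0.11).

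The 233753 probe sets with 1 gene symbol in the platform table were averaged per gene, which gave 23152 genes. Symbols were brought up to date through a RefSeq gene table, which also gave the order of neighbours for the 23069 genes it placed. Genotypes were then tested with limma 3.58.1 (functions lmFit and eBayes, no covariates) in R 4.3.3, with Benjamini-Hochberg adjustment over all genes and a threshold of 0.05. Folds are 2 to the power of the difference of group means. Nearest patterns were found by Euclidean distance. Figures used matplotlib 3.10.9. The fit was tested on simulated data.

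Members, lists and motifs were chosen with earlier results of these data known. Named were the 9 genes, *Mgat1*, *Insl3*, and genes of the lists of neighbours, antizymes, fascins, polyamine genes and binding partners. So were the other raised relatives, *Tbc1d8* and *Tbc1d4* among the lowered ones, and the 5 nearest patterns. Replicate numbers are those of the labels, and p-values measure the spread between mice. Also run were a block for the replicate number, fits without each array, centring, quantile normalization, filters on dim probe sets, other summaries of probe sets, the methods' one-way test, a trended robust variance and group medians. Another background correction was not run, since scanner files were not used here.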

Additional observations from a re-analysis of the deposited data

How the results depend on the processing

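The 9 genes were chosen by their difference, and their groups lay apart. Leaving out an array, taking group medians or adding the replicate block could therefore not turn its sign. The sign held in all 9 genes under every alternative run. Their values ranged over 3.58 to 4.52 (*Spem1*), 3.54 to 4.75 (*Cabs1*), 3.35 to 3.68 (*Lelp1*), 2.88 to 3.81 (*Spata3*), 2.32 to 3.15 (*Spert*), 2.32 to 2.56 (*Tbc1d21*), 2.08 to 2.25 (*Oaz3*), 0.97 to 2.78 (*Fscn3*) and 1.81 to 2.10 (*Gsg1*). With the median of probe sets the median of the 9 was 3.15, and 2629 genes and 4 relatives were lowered, against 4255 and 11 with the mean. On the brightest probe set 2194 genes, 4 neighbours, 2 relatives and 0 polyamine genes were lowered. With the methods' one-way test, adjusted, 2408 genes, 5 relatives and 1 polyamine gene were lowered, and with a trended, robust variance 5 polyamine genes. Without the dimmer 25% of probe sets 2 polyamine genes were raised. The causes were not tested.

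Leaving out each array in turn gave 2369 to 3111 raised and 2911 to 3737 lowered genes, 8 to 10 raised and 4 to 6 lowered neighbours, 3 to 5 raised and 4 to 9 lowered relatives, 1 to 2 raised and 1 to 4 lowered polyamine genes, and a median of the 9 genes of 2.60 to 2.76. Fewer samples were then tested. Signs turned in 5 genes. *Mgat1* had 0.13 without the dimmer 50% of probe sets and 0.011 on its brightest, *Oaz2* 0.031 with the median of probe sets and *Zc3h13*, called at -0.53, 0.0080 on its brightest probe set. *Fscn2* had 0.035 with arrays centred, 0.13 without the dimmer 25% of probe sets, 0.025 with the median and 0.38 with the brightest. Leaving out each array gave -0.17 to 0.032 in *Fscn1* and -0.10 to 0.041 in *Fscn2*, the highest of both without cKO 1. Over single genes other than the 9, 505 values kept their sign and their side of the threshold, 66 kept the sign and lost a call, 3 gained a call and 12 changed sign. With group medians the p-value was that of the main fit, so no call could change there.

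Same-numbered arrays shared no clear common deviation (correlations over all genes of 0.03, 0.10 and -0.06, against -0.13 to 0.11 between different numbers). With 3 arrays per group these values cannot decide whether the replicate numbers pair mice. The replicate block gave 3010 raised and 4020 lowered genes, 9 and 7 neighbours, 5 and 10 relatives and 1 and 3 polyamine genes, with the median of the 9 at 2.69. An unadjusted limma p under 0.05 was reached by 9837 genes. Signal over background is not known for these values, so weak signals have no lower limit.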
